A study of Homo sapiens with 3 samples.

Results

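Translation initiation factors are the proteins that bring the small ribosomal subunit, the initiator tRNA and an mRNA together at a start codon. The genes described here are the rows of the deposited table whose symbol begins with EIF and a digit, without the kinase genes named EIF2AK and without pseudogenes, and whose TPM averaged 1 or more across all libraries. TPM is a read share corrected for transcript length, so levels of different genes are compared per length. The rule kept 50 of the 31907 rows, out of 55 that matched by name. EIF4EBP1 and EIF4EBP2 end in P and a number but encode eIF4E-binding proteins, are protein-coding in GENCODE 29, and were kept. Of the 50, 48 are protein-coding and 2, EIF1AX-AS1 and EIF3J-AS1, are non-coding neighbours of a factor gene.

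RNA came from the established line NCI-N87, grown from a human gastric cancer, transfected with Lipofectamine 2000 in every case. The control library had a scrambled siRNA and is labelled wild type, and 1 library each was made after siRNA1 or siRNA2 against FOXP4, a forkhead transcription factor, both labelled knockdown. Each condition is thus a single library, the knockdown libraries differ in reagent, and both are set against the same control. Nothing in the labels says whether the cultures were separate or how long the cells were transfected, so any p-value measures only the spread between these libraries. In bulk RNA, fewer cells and less RNA per cell cannot be told apart. Where 3 values are given together, they are TPM in the scrambled, siRNA1 and siRNA2 libraries, in that order.

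Several facts of the libraries touch every result below. Depth, read from the steps between low values, came to about 18100000, 18300000 and 18800000 reads. FOXP4 measured 93.9, 51.6 and 36.7 TPM. After removal of the GC trend its log2 folds were -0.20 and -1.02, so with siRNA1 the check of the label is weak. The median log2 fold of all 14429 genes past the same 1 TPM filter was 0.03 with siRNA1 and -0.24 with siRNA2. Median-of-ratios scaling, which assumes that most genes are alike, moved these medians to 0.02 and 0.01. Mitochondrially encoded transcripts took 6.37%, 10.4% and 1.92% of TPM in the scrambled, siRNA1 and siRNA2 libraries. All 7 epithelial markers checked averaged 1 TPM or more and summed to between 3550 and 5670 TPM. Among the defining markers of other cell types COL1A1 alone reached a mean of 1 TPM (13.1, 6.42 and 22.3 TPM), while COL1A2, DCN, CD68 and CDH5 were listed at 0 in every library. The part of these shifts in the results below was not tested, except where a value without them is given.

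In outline, the main factors are given here by number, which is not the order in which they act. The eIF1 proteins keep the scanning ribosome open until the start codon is found, eIF2 carries the initiator tRNA and is recharged by its exchange factor eIF2B, and eIF3 is the large scaffold on the small subunit. The eIF4 proteins bind the mRNA cap and unwind the leader, eIF5 triggers GTP hydrolysis on eIF2, eIF5B joins the large subunit, and eIF6 keeps free large subunits apart from small ones. Growing tumour cells make all of them in quantity, and their activity is controlled largely after transcription, through phosphorylation of eIF2-alpha and through the binding proteins that hold eIF4E.

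Together the 50 genes summed to 9372, 9320 and 8940 TPM, or 0.939%, 0.933% and 0.895% of each library. Levels in the control ran from 0.562 TPM for EIF1AX-AS1 to 717 TPM for EIF4H, with a median of 104 TPM. The plot of levels by factor shows every gene in each library.

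**Figure D1:**
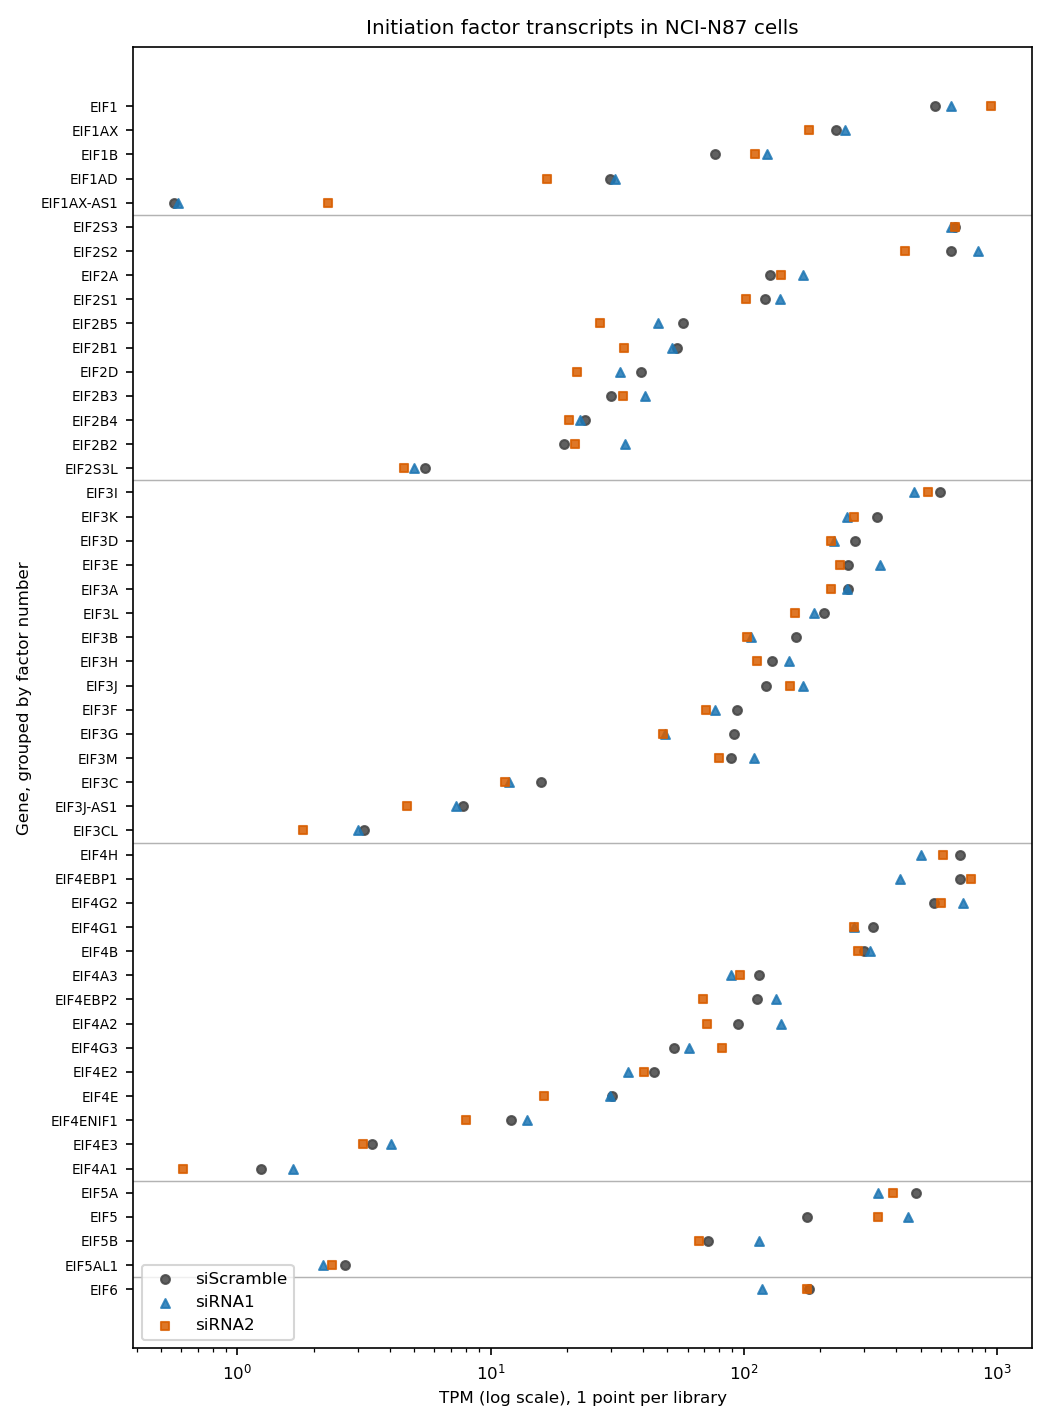
TPM of the 50 initiation factor genes on a log axis, 1 marker per library (circle, scrambled siRNA; triangle, siRNA1; square, siRNA2), grouped by factor number and ordered by the control. EIF5 stands at 178 TPM in the control against 447 and 339 TPM with the siRNAs, EIF3G at 91.7 against 48.7 and 48.2 TPM, and EIF4A1 near 1 TPM throughout.

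EIF5 had the highest mean fold of the initiation factors and was higher with both siRNAs. EIF3G and EIF3B, subunits of eIF3, were the only factors at least 1.5-fold lower with both. The other 47 genes were within 1.5-fold of the control with at least 1 of the siRNAs. Folds are of TPM + 1 against the scrambled library, given as log2, and a log2 of 0.585 is 1.5-fold. At that size 1 of the 50 genes was higher with both siRNAs, where 6.45% of all genes tested were, and 2 were lower, where 9.18% were. At 2-fold, 0 were higher and 0 lower, against 2.52% and 2.38% of all genes.

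In limma, fitted across all 14429 genes with Benjamini-Hochberg adjustment, 0 genes had an adjusted p under 0.05 (0.00% of those tested) and 428 had an unadjusted p under 0.05 (2.97%). Among the initiation factors 0 passed either way. The smallest unadjusted p was 0.0646, for EIF5, and every adjusted p was 0.9999. The fit has 1 residual degree of freedom, from the difference between the siRNAs, and takes the lone control to vary like them.

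Without regard to size, 10 of the 50 genes were higher with both siRNAs (24.5% of all genes), 25 were lower with both (38.1%) and 15 were split. Of the split genes 14 were higher with siRNA1 and lower with siRNA2 (26.9% of all genes), and 1, EIF4EBP1, was the reverse (9.81%). Taken singly, siRNA1 had 4 factors at least 1.5-fold higher (16.5% of all genes) and 4 lower (17.0%), and siRNA2 had 4 higher (12.8%) and 10 lower (29.7%). With median-of-ratios scaling the same 50 genes gave 17 higher, 15 lower and 18 split, beside 32.4%, 30.9% and 36.7% of all genes on that scale. The median log2 fold of the 50 was -0.03 with siRNA1 and -0.23 with siRNA2, beside 0.03 and -0.24 for all genes tested. The median size of a fold, whatever its sign, was 0.28 and 0.30 on the log2 scale. For all genes tested it was 0.41 and 0.48, and for those averaging 10 TPM or more it was 0.40 and 0.45. On the TPM scale these sizes were below those of genes at large. With median-of-ratios scaling they were 0.29 and 0.27, beside 0.41 and 0.44 for all genes. With the GC trend removed they were 0.24 and 0.26, beside 0.27 and 0.41, so the gap with siRNA1 was smaller. The difference was not tested, and the plot of folds shows both sets on the TPM scale.

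**Figure D2:**
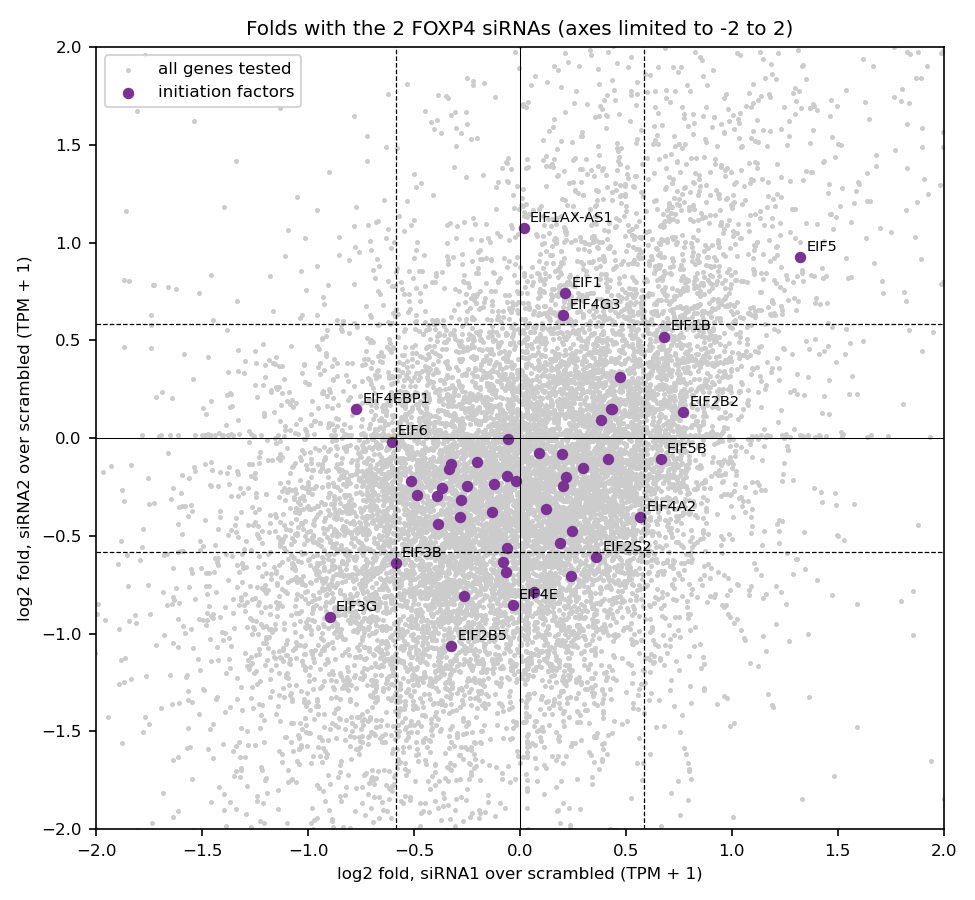
Log2 fold of TPM + 1 over the scrambled library with siRNA1 (horizontal) and siRNA2 (vertical), for all genes tested (grey) and the 50 initiation factors (purple); dashed lines mark 1.5-fold and the axes stop at -2 and 2. EIF5 (1.32 and 0.92) is alone among the factors in the upper right corner, and EIF3G (-0.90 and -0.91) and EIF3B (-0.59 and -0.64) lie in the lower left one.

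EIF5, the GTPase-activating protein that makes eIF2 release the initiator tRNA at the start codon, lies on chromosome 14 (ENSG00000100664.10, 103333544 to 103345025, plus strand, GRCh38). It measured 178, 447 and 339 TPM. Both knockdown libraries lay well above the control, siRNA1 further than siRNA2. The log2 folds were 1.32 and 0.92, a mean of 1.12 ± 0.28 (SD, n = 2). About 7126, 17305 and 13349 reads stood behind these values, and counting alone gives each log2 fold a standard error of 0.02. Median-of-ratios scaling gave 1.31 and 1.20, and removal of the GC trend gave 0.97 and 1.10, so EIF5 met the 1.5-fold rule on each scale.

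The promoter of EIF5 is shown because it is the factor furthest above the control. That of EIF3B is shown as an example of a factor at least 1.5-fold lower with both siRNAs. EIF3G was further below the control, and its promoter is not shown. Sequences are from RefSeq on GRCh38.p14, from 150 bases before to 20 bases after the annotated start. The EIF5 window is chr14:103334087-103334256 and the EIF3B window chr7:2354677-2354846, both on the plus strand. Capitals mark matches to any of the motif letters searched on both strands.
EIF5: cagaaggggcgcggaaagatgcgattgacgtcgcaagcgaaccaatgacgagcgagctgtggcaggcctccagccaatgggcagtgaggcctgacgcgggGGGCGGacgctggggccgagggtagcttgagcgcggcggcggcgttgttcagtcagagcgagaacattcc
EIF3B: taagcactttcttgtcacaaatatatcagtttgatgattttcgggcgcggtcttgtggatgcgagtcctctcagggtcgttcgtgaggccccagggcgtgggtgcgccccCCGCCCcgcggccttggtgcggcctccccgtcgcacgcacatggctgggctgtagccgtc
The windows were 65.9% and 62.9% G or C, and each held 1 match, to the SP1 letters GGGCGG. Over the full RefSeq window of 300 bases, from 250 before to 50 after the start, these letters lay in 28 of the 42 initiation factor promoters listed (66.7%) and in 44.95% of all 35116 promoters. The ETS letters CCGGAAG lay in 10 of the 42 (23.8%, against 10.3% of all), the YY1 letters AAGATGGC in 3 (7.14%, against 2.89%) and the AP-1 letters TGANTCA in 3 (7.14%, against 7.71%). The forkhead letters TGTTTAC lay in 1, EIF3D (2.38%, against 3.42%), and TATAAA in 1, EIF4A2 (2.38%, against 11.5%). CRE (TGACGTCA), EGR (GCGTGGGCG) and NRF1 letters lay in 0 of the 42, against 1.85%, 0.795% and 1.24% of all promoters. The EGR and SP1 letters can overlap each other. A match is a match of letters and not a binding site. The 42 were 1 promoter per gene, from genes past the 1 TPM filter, while all 35116 were taken without either limit. The part of this difference between the sets in the shares was not tested.

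Initiation factor mRNAs often begin with a C and a run of pyrimidines, the mark of mRNAs whose translation follows mTOR activity. At the annotated RefSeq start, 10 of the 42 listed promoters had a C followed by at least 4 pyrimidines (23.8%), against 4.07% of all promoters. As above, all promoters were not limited to genes past the TPM filter or to 1 promoter per gene. EIF2A, the only 1 of the 10 higher with both siRNAs, EIF2D and EIF2S3L are not shown. The other 7 are shown from 20 bases before to 20 after the start, with the first 5 transcribed bases in capitals.
EIF2S3: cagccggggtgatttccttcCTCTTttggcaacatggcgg
EIF3D: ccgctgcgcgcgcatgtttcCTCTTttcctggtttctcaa
EIF3F: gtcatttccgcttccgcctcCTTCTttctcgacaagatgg
EIF3K: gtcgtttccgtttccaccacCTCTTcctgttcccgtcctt
EIF3M: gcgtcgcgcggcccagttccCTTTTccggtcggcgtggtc
EIF4A2: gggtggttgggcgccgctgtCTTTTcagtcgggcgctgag
EIF4B: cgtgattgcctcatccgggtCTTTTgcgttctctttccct
They lie at chrX:24054936-24054975, chr22:36529147-36529186 (minus strand), chr11:7987317-7987356, chr19:38619168-38619207, chr11:32583811-32583850, chr3:186783557-186783596 and chr12:53006436-53006475, in the order shown. The pyrimidine run, read from the start, was 10 bases long in EIF3D and EIF3F, 8 in EIF3K, 7 in EIF2S3 and EIF3M, 6 in EIF4A2 and 5 in EIF4B. The 10 genes had median log2 folds of -0.09 and -0.27, with 1 higher with both siRNAs (24.5% of all genes tested), 6 lower (38.1%) and 3 split.

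On the TPM scale the eIF1 genes were level with or above the control with siRNA1 and mixed with siRNA2. EIF1, the start-codon gatekeeper (chromosome 17), measured 568, 658 and 949 TPM. Its paralog EIF1B measured 77.1, 124 and 111 TPM, with log2 folds of 0.68 and 0.52, so it missed the 1.5-fold rule with siRNA2 alone. Median-of-ratios scaling gave EIF1B 0.67 and 0.80, past the rule with both. Removal of the GC trend gave it 0.38 and 0.71, short of the rule with siRNA1. In TPM EIF1B stood higher relative to EIF1 with siRNA1 and lower relative to it with siRNA2. The ratio of EIF1 to EIF1B was 7.36, 5.30 and 8.56. The ratio of EIF5 to EIF1, whose proteins act against each other in start-codon choice, was 0.314, 0.679 and 0.357.

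The other eIF1 genes showed no common direction. EIF1AX, on chromosome X, encodes eIF1A, which helps place the initiator tRNA, and measured 232, 252 and 181 TPM. With the GC trend removed its log2 folds were -0.43 and -0.29, below the control with both. EIF1AD, named for its eIF1A-like domain, measured 29.6, 31.0 and 16.7 TPM, level under siRNA1 and 0.79 below the control on the log2 scale under siRNA2. EIF1AX-AS1 was the member nearest to the threshold of 1 TPM, at 0.562, 0.581 and 2.28 TPM. These values rest on about 1, 1 and 4 reads, so no difference was detectable at this depth. Just outside the threshold were EIF1B-AS1, at 0.469, 0.444 and 0.159 TPM, EIF5A2 and EIF4E1B, both under 0.1 TPM in each library, and EIF4EBP3, listed at 0 in all 3, and 1 further row was also listed at 0.

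Of the 11 eIF2 and eIF2B rows, 3 were higher with both siRNAs (24.5% of all genes tested), 6 lower (38.1%) and 2 split (37.4%). At 1.5-fold 0 were higher with both (6.45%) and 0 lower (9.18%). With median-of-ratios scaling 4 were higher, 4 lower and 3 split, beside 32.4%, 30.9% and 36.7% of all genes. The genes of the trimer that carries initiator tRNA had unlike folds. EIF2S3, the GTP-binding gamma subunit, was nearly level at 685, 658 and 681 TPM. EIF2S2, the beta subunit, measured 659, 846 and 432 TPM, so the siRNAs lay on opposite sides of the control and differed by 0.97 on the log2 scale. EIF2S1, the alpha subunit that stress kinases phosphorylate, measured 121, 139 and 102 TPM. Transcripts of the alpha subunit were the scarcest in every library, the ratio of EIF2S2 to EIF2S1 being 5.44, 6.07 and 4.23. EIF2S3L, listed by RefSeq as EIF2S3B, measured 5.52, 4.98 and 4.54 TPM, and reads of this close copy of EIF2S3 may have been shared between the genes.

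The exchange factor eIF2B has 5 subunits, and their genes summed to 185, 195 and 136 TPM. EIF2B5, the catalytic epsilon subunit, was the lowest of these relative to the control, at 57.8, 46.0 and 27.2 TPM. Its log2 folds were -0.32 and -1.06, far apart between the siRNAs. EIF2B1, the alpha subunit, measured 54.5, 52.0 and 33.6 TPM, close to the control under siRNA1 and lower under siRNA2. EIF2B2, the beta subunit, went the other way with siRNA1, at 19.5, 33.98 and 21.5 TPM. EIF2B3 measured 30.0, 40.9 and 33.4 TPM and EIF2B4 23.5, 22.5 and 20.4 TPM, both within 1.5-fold of the control in each library. As a result the order of the subunit genes differed between libraries, with EIF2B5 highest in the control and EIF2B1 highest with both siRNAs. Among other tRNA-binding factors of the group, EIF2A measured 127, 172 and 141 TPM and EIF2D 39.3, 32.6 and 22.1 TPM.

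Most of the 13 genes of the eIF3 scaffold were lower with both siRNAs, by amounts that were mostly small. Of the 13, 9 were lower with both (38.1% of all genes tested), 1 was higher with both (24.5%) and 3 were split. With median-of-ratios scaling 7 were lower with both (30.9% of all genes on that scale), 4 higher (32.4%) and 2 split. With the GC trend removed 11 were lower with both (34.4% of all genes), 1 higher (33.9%) and 1 split. Single members crossed the control between these scales, and the excess over all genes was not tested. Their median difference between siRNA1 and siRNA2 was 0.16 on the log2 scale, against 0.34 for all 50 factors and 0.50 for all genes tested. It was 0.21 against 0.30 for all factors with median-of-ratios scaling and 0.22 against 0.27 with the GC trend removed, and the difference was not tested. None of the 13 was 1.5-fold apart between the siRNAs on any of these 3 scales. Of all genes tested on TPM, 30.5% were that much higher with siRNA1 and 12.9% with siRNA2. The shares were 18.1% and 21.05% with median-of-ratios scaling, and 15.6% and 15.4% with the GC trend removed. With mitochondrially encoded genes left out 1 of the 13, EIF3E, was apart, at 0.48 with siRNA1 and -0.18 with siRNA2. The shares of all genes there were 37.3% and 10.5%.

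EIF3G, an RNA-binding subunit needed for scanning (ENSG00000130811.11, chromosome 19, 10115017 to 10119918, minus strand), measured 91.7, 48.7 and 48.2 TPM. The knockdown libraries were almost equal and both near 53% of the control, at 53.1% and 52.5%. Its mean log2 fold was -0.91 ± 0.01 (SD, n = 2). EIF3B, the scaffold subunit that binds eIF3g and eIF3i (ENSG00000106263.17, chromosome 7, 2354086 to 2380745, plus strand), measured 161, 107 and 103 TPM. Here too the siRNAs lay close together, with a mean log2 fold of -0.61 ± 0.04 (SD, n = 2), just past 1.5-fold. EIF3I, a ring-shaped subunit and the most abundant eIF3 transcript, measured 596, 473 and 533 TPM. Its fold with siRNA2, -0.16, turned to 0.12 with median-of-ratios scaling and to 0.11 with the GC trend removed.

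GC content moved with these folds. EIF3G and EIF3B have the highest GC content of the 13, 60.3% and 56.0% of the longest transcript, and GC-rich genes in general were lower. For the 3568 genes of at least 55% GC the median log2 folds were -0.47 with siRNA1 and -0.31 with siRNA2, while for the 1912 genes under 40% they were 0.46 and -0.14. With the GC trend removed EIF3G stood at -0.39 and -0.61 and EIF3B at -0.29 and -0.33. Both kept their direction, and neither then met the 1.5-fold rule. With median-of-ratios scaling EIF3G still met it, at -0.91 and -0.64, and EIF3B did not, at -0.60 and -0.36.

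**Figure D3:**
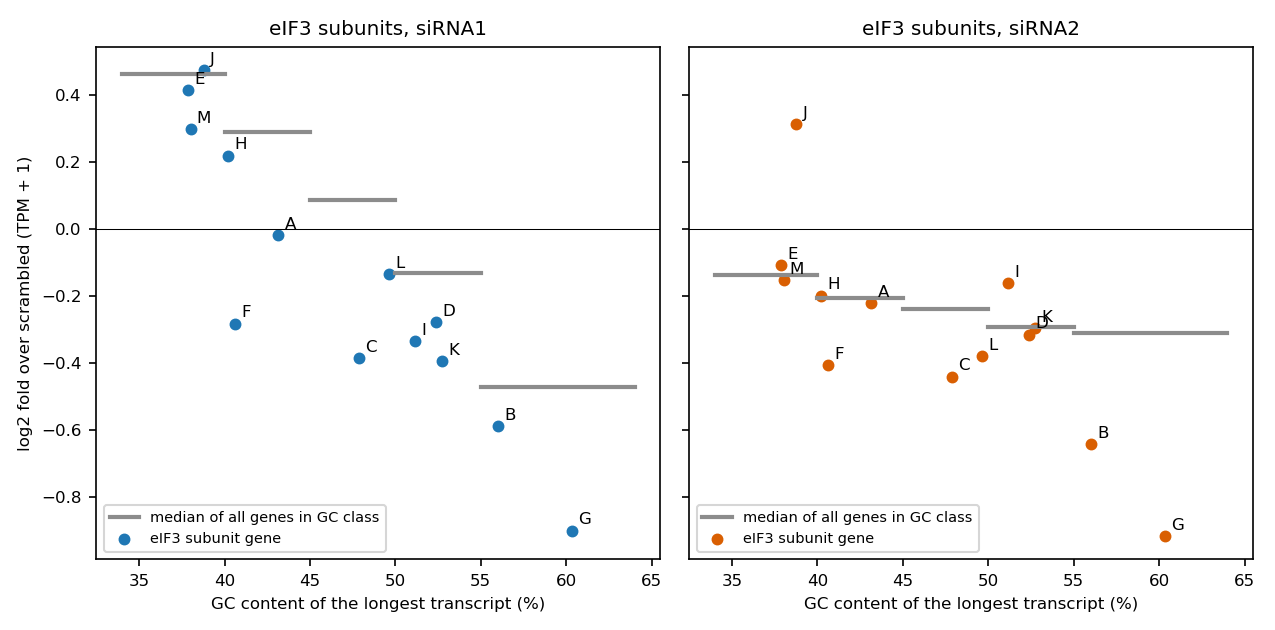
Log2 fold of TPM + 1 over the scrambled library for the 13 eIF3 subunit genes (letters) against GC content of the longest transcript, with siRNA1 on the left and siRNA2 on the right; grey bars are medians of all genes tested in each GC class, the outer classes drawn to the edge of the points. With siRNA1 the subunits range from 0.47 for J to -0.90 for G. J alone lies above the bar of its class there, 0.46, and every other subunit lies below its own. With siRNA2 E, H, I and J lie above the bars of their classes, and the other subunits lie below theirs.

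The eIF3 octamer is the ring of subunits a, c, e, f, h, k, l and m. It held 5 of 8 genes lower with both siRNAs (38.1% of all genes tested) and 3 split (37.4%). EIF3E measured 259, 345 and 240 TPM, EIF3H 130, 151 and 113 TPM, and EIF3M 88.9, 110 and 79.9 TPM. These 3 shared the split, above the control with siRNA1 and below it with siRNA2, and they are poor in GC, at 37.9% to 40.2%. With median-of-ratios scaling all 3 were above the control with both, and with the GC trend removed all 3 were below it with both, by 0.18 or less. The octamer then held 8 of 8 genes lower with both (34.4% of all genes). Its median log2 folds on that scale were -0.21 with siRNA1 and only -0.05 with siRNA2. With median-of-ratios scaling it held 4 lower, 3 higher and 1 split, beside 30.9%, 32.4% and 36.7% of all genes. EIF3A, the largest subunit, stayed near the control at 259, 256 and 222 TPM, and EIF3L measured 208, 190 and 160 TPM. EIF3K measured 336, 256 and 274 TPM and EIF3F 94.2, 77.3 and 70.9 TPM, below the control with both. EIF3C was the lowest of the 13, at 15.8, 11.9 and 11.4 TPM. It has a near-identical copy, EIF3CL, at 3.16, 2.98 and 1.82 TPM, and how reads common to both were counted is not given in the sources used here, so neither level is certain.

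Outside the octamer, EIF3D, which can bind the cap of selected mRNAs, measured 275, 227 and 221 TPM. EIF3J, a loosely held subunit that promotes release of the ribosome, was the exception among the 13, at 123, 171 and 153 TPM, above the control with both siRNAs. Its log2 folds were 0.47 and 0.31, short of 1.5-fold, and 0.46 and 0.59 with median-of-ratios scaling. They were 0.02 and 0.43 with the GC trend removed. EIF3J-AS1, listed by RefSeq as EIF3J-DT, went below the control instead, at 7.78, 7.32 and 4.67 TPM. Strand use in the counting is not given in the sources used here, so where genes overlap on opposite strands their reads cannot be told apart. In GENCODE 29 that touches 8.498% of the exon bases of EIF3J-AS1 and 0% of those of EIF1AX-AS1.

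The 14 eIF4 rows cover cap binding, its regulators and the helicase. Of these, 2 were higher with both siRNAs (24.5% of all genes tested), 5 lower (38.1%) and 7 split (37.4%). With median-of-ratios scaling 4 were higher, 1 lower and 9 split, beside 32.4%, 30.9% and 36.7% of all genes. EIF4E, the cap-binding protein that limits initiation, measured 30.3, 29.5 and 16.3 TPM. On the TPM scale it was level with siRNA1 and lower with siRNA2 alone, where its log2 fold was -0.85. With the GC trend removed its folds were -0.48 and -0.73, below the control with both. EIF4E2, a cap-binding relative that represses translation, measured 44.2, 35.0 and 40.2 TPM. EIF4E3, the third relative, measured 3.39, 4.03 and 3.14 TPM. EIF4ENIF1, which carries eIF4E into the nucleus and to P-bodies, measured 12.1, 13.9 and 8.02 TPM.

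The binding proteins that compete with eIF4G for eIF4E went opposite ways. EIF4EBP1 was among the most abundant factors, at 712, 416 and 789 TPM, so it was low with siRNA1 alone. EIF4EBP2 measured 113, 134 and 68.9 TPM, low with siRNA2 alone. The ratio of EIF4EBP1 to EIF4E was therefore 23.5, 14.1 and 48.4, and that of EIF4EBP1 to EIF4EBP2 was 6.31, 3.11 and 11.4. EIF4EBP1 has the highest GC content of the 50 genes, 65.5%. With the GC trend removed its log2 fold with siRNA1 was 0.04 in place of -0.77, and with siRNA2 0.48 in place of 0.15.

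The eIF4G scaffolds, which link the cap to eIF3, were unlike each other. EIF4G1, the main form, measured 323, 272 and 272 TPM, equally below the control with both siRNAs by 0.25 and 0.24 on the log2 scale. With siRNA2 that is the same as the median of all genes, and with median-of-ratios scaling the folds were -0.26 and 0.04. With the GC trend removed they were 0.11 and 0.06, above the control with both. EIF4G3 measured 52.8, 60.9 and 82.2 TPM, past 1.5-fold with siRNA2 alone. EIF4G2, a shortened relative that lacks the eIF4E-binding part, measured 566, 738 and 604 TPM. EIF4G1 thus came to 6.11, 4.46 and 3.31 times EIF4G3 in the 3 libraries.

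The helicase genes included a row with a level far below its partners. EIF4A1, the main cap-complex helicase (ENSG00000161960.14, chromosome 17, 7572706 to 7579005, plus strand), was listed at 1.24, 1.65 and 0.609 TPM, on about 31, 40 and 15 reads. Its paralog EIF4A2 measured 94.8, 141 and 71.5 TPM, and EIF4A3, of the exon junction complex, 115, 88.8 and 96.4 TPM. In GENCODE 29, 48.6% of the exon bases of EIF4A1 also lie in exons of other genes on the same strand, against 0% in 43 of the 50 factors. The overlapping read-through gene SENP3-EIF4A1 was itself listed at 0, 0.125 and 0 TPM. Among protein-coding genes in the table, those with more than 25% and up to 50% of such overlap had a median of 1.22 TPM (349 genes), and those with none had a median of 12.0 TPM (13745 genes). How the authors treated reads that fit more than 1 gene is not given in the sources used here, so the EIF4A1 values may not reflect the level of its mRNA. EIF3L, with 41.1% of such overlap, measured 208, 190 and 160 TPM, so overlap did not always go with a low value.

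The helpers of the helicase were abundant. EIF4B measured 298, 317 and 283 TPM, close to the control with both siRNAs. EIF4H measured 717, 502 and 615 TPM, below the control with both by 0.51 and 0.22. With median-of-ratios scaling, and with the GC trend removed, the siRNA2 value of EIF4H turned to 0.06.

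Of the late factors other than EIF5, none was beyond 1.5-fold with both siRNAs. EIF5B, the GTPase that joins the subunits, measured 72.0, 115 and 66.8 TPM, higher with siRNA1 alone. Removal of the GC trend took its fold with siRNA1 from 0.66 to 0.20. EIF5A, which carries the modified residue hypusine and helps peptide bond formation, measured 478, 341 and 390 TPM. EIF5AL1, a close copy of EIF5A, measured 2.66, 2.17 and 2.36 TPM on 38 to 48 reads, and its reads may belong to either gene. EIF6 measured 181, 118 and 178 TPM, low with siRNA1 alone and level with siRNA2. Its GC content is 58.0%, and with the GC trend removed its log2 folds were -0.21 and 0.29, within 1.5-fold with both.

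Set against each other, the siRNAs left 14 of the 50 genes at least 1.5-fold apart. In 11 the siRNA1 library was the higher, where 30.5% of all genes tested were, and in 3 the siRNA2 library was, where 12.9% were. The 11 were EIF2S2, EIF2B1, EIF2B2, EIF2B5, EIF4A1, EIF4A2, EIF4E, EIF4EBP2, EIF4ENIF1, EIF5B and EIF1AD, and the 3 were EIF4EBP1, EIF6 and EIF1AX-AS1. With median-of-ratios scaling the counts were 3 and 5, where 18.1% and 21.05% of all genes were. With the GC trend removed they were 1 and 3 of 48, where 15.6% and 15.4% of all genes were. With mitochondrially encoded genes left out they were 16 and 2, where 37.3% and 10.5% of all genes were. The difference between the reagents has no replicate and was not tested.

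Among 40 other translation genes listed for comparison, 38 averaged 1 TPM or more, and PPP1R15A, DDIT3 and PPP1R15B had the highest mean folds. By the 1.5-fold rule 4 of the 38 were higher with both siRNAs (10.5%, against 6.45% of all genes) and 1 was lower (2.63%, against 9.18%). PPP1R15A and PPP1R15B, which direct a phosphatase to eIF2-alpha, were both among the 4. PPP1R15A measured 185, 920 and 2611 TPM. PPP1R15B measured 193, 436 and 458 TPM, with log2 folds of 1.17 and 1.24. The phosphatase catalytic subunits were not higher with both, PPP1CA measuring 294, 191 and 256 TPM and PPP1CC 163, 187 and 47.7 TPM. DDIT3, a stress transcription factor induced through eIF2-alpha phosphorylation, measured 58.1, 269 and 531 TPM, while ATF4, which lies between them in that pathway and is controlled mainly at translation, measured 1131, 1081 and 1486 TPM.

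The kinases that phosphorylate eIF2-alpha were not among the higher genes. EIF2AK1 measured 159, 150 and 67.5 TPM and EIF2AK4 47.7, 50.03 and 32.8 TPM. EIF2AK2 measured 31.7, 41.8 and 25.3 TPM and EIF2AK3 13.6, 19.8 and 11.1 TPM, above the control with siRNA1 and below it with siRNA2. The fourth higher gene was DDX3X, a helicase of structured leaders, at 298, 507 and 574 TPM. The lower gene was RPS6KB2, an S6 kinase downstream of mTOR, at 22.3, 14.4 and 9.71 TPM. Removal of the GC trend left DDX3X at 0.32 and RPS6KB2 at -0.22 with siRNA1, short of the rule. In limma 0 of the 38 passed over all genes tested, and 3 had an unadjusted p under 0.05.

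**Figure D4:**
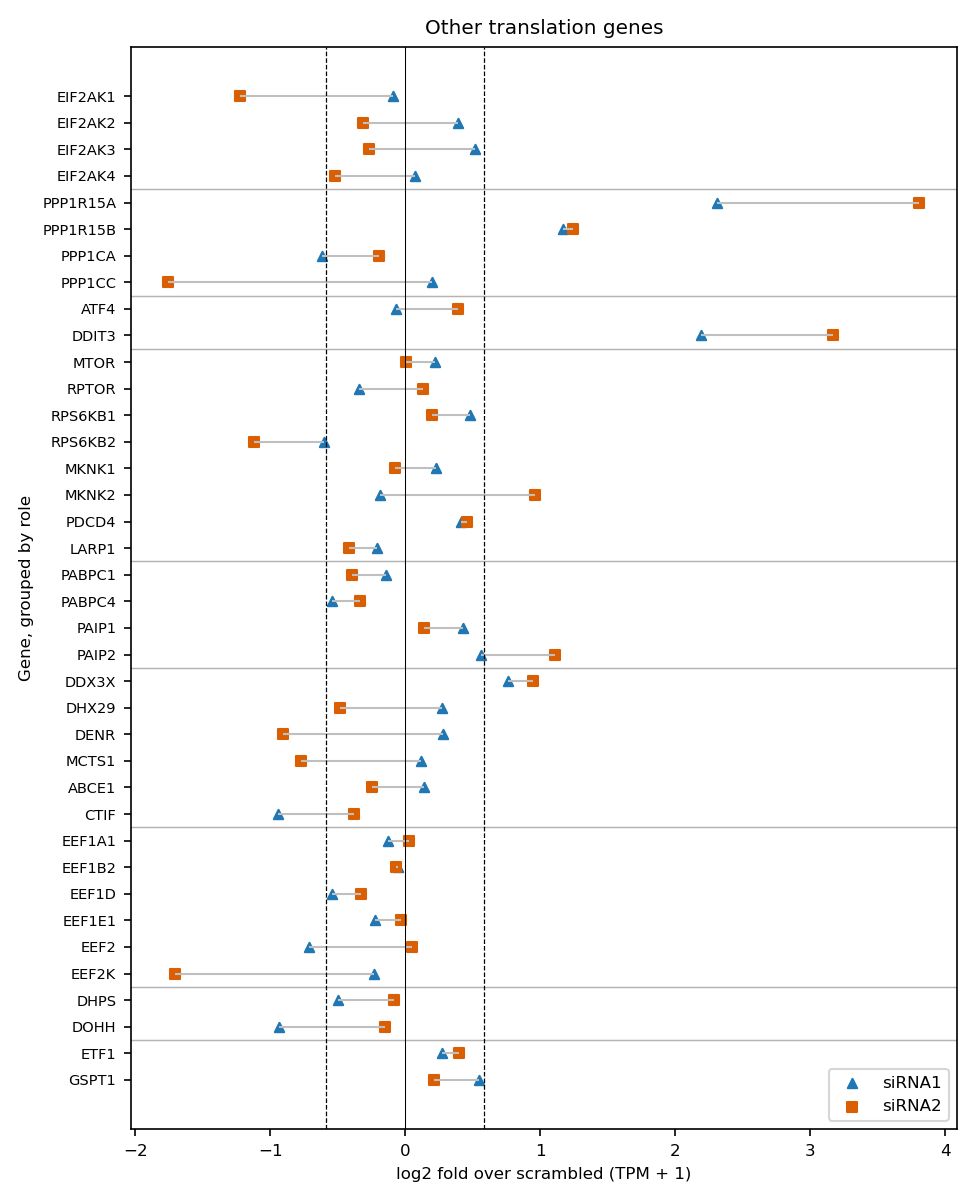
Log2 fold of TPM + 1 over the scrambled library with siRNA1 (triangles) and siRNA2 (squares) for 38 other translation genes, grouped by role; dashed lines mark 1.5-fold. PPP1R15A (2.31 and 3.81), DDIT3 (2.19 and 3.17), PPP1R15B and DDX3X lie beyond the right dashed line with both siRNAs, and RPS6KB2 lies beyond the left one.

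The remaining listed genes were mostly within 1.5-fold of the control with at least 1 siRNA. PAIP2, which restrains the poly(A)-binding protein, measured 38.7, 57.7 and 84.9 TPM, just short of the rule with siRNA1. The elongation factors EEF1A1, at 6531, 5971 and 6661 TPM, and EEF1B2, at 785, 754 and 747 TPM, stayed close to the control. EEF2 measured 3356, 2047 and 3479 TPM, low with siRNA1 alone on the TPM scale, and its kinase EEF2K 22.1, 18.7 and 6.08 TPM, low with siRNA2 alone. DOHH, which completes the hypusine of eIF5A, measured 43.6, 22.3 and 39.1 TPM. Both EEF2 and DOHH are rich in GC, at 59.9% and 67.5%, and with the GC trend removed their siRNA1 folds were -0.23 in place of -0.71 and -0.0025 in place of -0.93.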

How the data were processed

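The authors deposited 1 table of TPM with 1 column per library. The build was GRCh38, per the submitters' processing notes. The tool behind the TPM and its annotation are not given in the sources used here. Gene positions, types, exon lengths, exon overlap and the GC content of the longest transcript were taken from GENCODE 29, using symbols, and for 2 of the 50 genes through RefSeq synonyms. Reads were estimated as TPM times exon length divided by the size of 1 read's step; in 45 of 50 genes the results lay within 0.01 of whole numbers in all 3 libraries. Standard errors from reads cover counting only.

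Values were compared as log2(TPM + 1), which understates folds of low genes, with a minimum mean of 1 TPM. Limma 3.58.1 in R 4.3.3 was used with an intensity trend. Its code was run on simulated data. The pass mark there covered only changes far larger than those of the factors, at less than the spread between the siRNAs. Recovery of changes of the size seen here is not reported. The GC trend was a lowess curve per siRNA fitted at a mean of at least 10 TPM. Members and lists were chosen with earlier results of these data known. Values are printed for genes past 1.5-fold with both siRNAs or between them, for the extremes of each factor number, for paralogs and eIF2 subunits, and for the rest of each complex described, which were added later. Alternatives were other pseudocounts, filters, scalings, GC removal and leaving out each siRNA.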

Additional observations from a re-analysis of the deposited data

How the results depend on the processing

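With 1 library per reagent, depth is not the limit for most of the genes: 44 of the 50 had over 100 reads in every library. Of all genes tested limma called 0, 93 with a mean of at least 10 TPM and 9 with mitochondrially encoded genes left out, none of them initiation factors; over these and the other settings the adjusted p of EIF5 ran from 0.667 to 0.999995. The count of factors at least 1.5-fold higher with both siRNAs was 1, where 6.45% of all genes were. In the same way, the share of all genes in each setting follows in brackets. The count became 2 with median-of-ratios scaling (8.33%), through EIF1B, and 0 at 2-fold (2.52%). It was 4 with siRNA1 left out (12.8%) and 4 with siRNA2 left out (16.5%). The count lower with both was 2 (9.18%). It became 1, each time EIF3G, with a pseudocount of 5 TPM (5.08%), with median-of-ratios scaling (6.66%) and with mitochondrial genes left out (8.86%). It was 0 with the GC trend removed (3.92%) and 0 at 2-fold (2.38%). With siRNA1 left out it was 10 (29.7%) and with siRNA2 left out 4 (17.0%). The cause of these shifts was not tested. The median of the mean log2 folds, -0.17, kept its sign in every setting. It ran from -0.22 with a pseudocount of 0.1 TPM and -0.23 without siRNA1 to -0.03 without siRNA2. For all genes tested it was -0.13. With median-of-ratios scaling it was -0.06, beside -0.01 for all genes, and with the GC trend removed -0.09, beside -0.02. The factor medians of single siRNAs changed sign, to 0.05 for siRNA2 with median-of-ratios scaling and 0.03 for siRNA1 without mitochondrial genes. Single genes moved by more than the SD between the siRNAs in 16 cases with median-of-ratios scaling and in 14 of 48 with the GC trend removed. No paired analysis was possible because the control is 1 library and carries no number that it shares with an siRNA.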

Other observations

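The rule left out 50 pseudogene rows of initiation factors, and 20 of these had a mean of at least 1 TPM. The highest was EIF2S2P4, a processed copy of EIF2S2, at 53.1, 38.6 and 24.1 TPM in the scrambled, siRNA1 and siRNA2 libraries. EIF1AXP1 measured 40.5, 24.7 and 22.8 TPM, EIF4BP6 22.9, 19.3 and 18.1 TPM and EIF4HP1 17.0, 14.7 and 12.6 TPM. EIF4A1P10, a processed copy of EIF4A1, measured 17.99, 13.7 and 8.87 TPM and so stood above EIF4A1 itself, at 1.24, 1.65 and 0.609 TPM, in each of the 3 libraries. On the TPM scale EIF2S2P4 and EIF1AXP1 lay below the control with both siRNAs, while their parent genes EIF2S2 and EIF1AX lay above it with siRNA1. Whether these rows hold transcripts of the copies or reads of the parent mRNAs was not tested.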
